A study of Mus musculus with 14 samples.

Results

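The cytosolic ribosomal protein genes were followed across 7 groups of mouse cells on Illumina expression arrays. Members were chosen by name: every probe whose platform symbol is Rpl or Rps with a number and an optional letter suffix, together with Rplp0, Rplp1, Rplp2 and Rpsa, leaving out pseudogenes and the Rps6k kinases. This rule found 78 probes for 61 genes among the 25697 probes of the array. Of these, 67 probes for 54 genes passed the background filter (deposited log2 value of 7.7 or more on at least 7 of the 14 arrays), as did 12195 probes for 8435 genes in all. The 54 measured genes were 31 of the large subunit, 21 of the small subunit and 2 of the stalk. Of them, 52 were above that level on all 14 arrays, Rps15a was on 13 (1 MEF array was below) and Rpl14 on 10. The 7 genes with no probe past the filter were Rpl3l, Rpl6, Rpl17, Rpl39l, Rplp2, Rps23 and Rpsa, whose deposited values lay between 7.14 and 9.37. Each gene is given by its brightest probe unless another is named, and all values are log2 signals.

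The 7 groups held 2 arrays each. The iPS-NSC groups were the lines #1 and #3, neural stem cells (NSCs) differentiated in vitro from induced pluripotent stem cells (iPSCs). These iPSCs came from OG2/ROSA26 double-heterozygous fibroblasts that had received Oct4, Sox2, Klf4 and c-Myc by retrovirus. The iPS-cNSCs descended from such iPSCs within chimeric embryos, were taken from the brain at 13.5 dpc and were purified with neomycin. The NED-cNSCs (called NED-NSCs in the sample labels) were the X-gal-negative NSCs of normal host cells in chimeric embryos, also from 13.5 dpc brain. The study's methods give the host embryos as B6C3F1, and host strain and group cannot be told apart for NED-cNSCs. ESCs were from 3.5 dpc blastocysts, OG2 heterozygous, and were grown on fibroblast feeders, while MEFs (embryonic fibroblasts) and brain-NSCs came from 13.5 dpc fetuses heterozygous for both ROSA26 and OG2. The question of the design was how near the iPSC-derived NSCs came to brain-NSCs. No source used here says that the 2 arrays of a group were separate cultures, and the p-values then reflect the spread between 2 arrays, which may be technical; each line may also stand for 1 clone.

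The cytosolic ribosome joins a small subunit, which reads the mRNA, to a large subunit, which forms the peptide bond, and a stalk on the large subunit recruits the elongation factors. Its proteins are made in near-equal numbers, and their mRNAs carry a pyrimidine-rich start, the 5′ terminal oligopyrimidine (TOP) tract, through which TOR signalling controls their translation. Mammalian genomes hold many processed copies of these genes, so that a probe may also catch RNA of a copy. The probe sequences were not used here and this was not tested. Fast-dividing cells, stem cells among them, are known for a high output of ribosomes.

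RefSeq promoters (GRCm38.p6, 250 bases before to 50 after each annotated start) were found for 52 of the 61 genes. A run that starts with C and goes on for 5 or more pyrimidines, beginning within 25 bases of the start, stood in 43 of the 52 (82.7%), against 55.5% of the promoters of all 27025 genes in the table. For runs of 10 or more the shares were 32.7% and 8.03%. For a run of 5 or more starting within 5 bases of the start, also as part of a longer run, they were 46.2% and 18.5%. The following windows show this run in capitals for 10 of the genes that have one, chosen because the results below turn on them or as the paralogue pair Rpl36a and Rpl36al, each 5′ to 3′ on the gene's own strand.
Rplp0, chr5:115559468-115559497 (+): gaccgcctggttCTCCTataaaaggcacac
Rps6, chr4:86857349-86857378 (-): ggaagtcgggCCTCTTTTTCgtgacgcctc
Rpl4, chr9:64173362-64173391 (+): tgacaagtCTTTCCTTTTCCTgtgggagca
Rpl36a, chrX:134585651-134585680 (+): accgcctataaaCTTCCgttgcggctctag
Rpl36al, chr12:69184037-69184066 (-): gttcagttccgaCTTCCgctctgttcgtcc
Rps15a, chr7:118116143-118116172 (-): gcccggcccaCTCTCTTTCTgccatcttcc
Rpl35a, chr16:33056469-33056498 (+): ggggcttgCCTTCCTCTTTCCgccatcttg
Rps21, chr2:180257366-180257395 (+): ccgaggacccgCCCTCCTgcccaatagtgc
Rpl5, chr5:107900498-107900527 (+): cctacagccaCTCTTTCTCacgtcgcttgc
Rpl23, chr11:97782404-97782433 (-): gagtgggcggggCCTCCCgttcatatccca
Among these 10 genes the run was shortest in Rplp0, Rpl36a and Rpl36al (5 bases) and longest in Rpl4 and Rpl35a (13 bases). It began 1 base before the annotated start in Rps6 and 2 before it in Rps21. In the others it began from 9 (Rpl36a) to 24 (Rpl35a) bases away, on either side. Whether a run is the TOP tract of the mRNA was not tested. The letters CGGAAG, the core that ETS-family factors bind, were found on either strand in 71.2% of the 52 member promoters, against 17.2% of all promoters. GGGCGG, the GC box, was in 59.6% against 35.9%, ATGGCG, the core of the YY1 motif, in 25% against 9.24%, and TATAAA in 7.69% against 14.2%. The reverse complement of the first of these, CTTCCG, overlaps some of the pyrimidine runs, so these shares are not separate counts. A match describes the letters of these windows and is not a binding site.

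The members were among the brightest features of the arrays. Their mean log2 signal was 14 or more for 25 of 54 (46.3%), against 1.2% of all genes, and 2 of them, Rplp1 and Rpl41, stood on some arrays at 15.99, the highest value that normalization left on any array. Across the 7 groups the means of a member differed by a median of 0.86 on the log2 scale, against 1.12 for all genes, while the SD between the 2 arrays of a group was 0.106 for members and 0.096 for all genes. Members with a range over 1 made up 22 of 54 (40.7%), against 57% of all genes. The narrowest ranges belonged to Rps20 (0.29), Rpl41 (0.33), Rps27l (0.33) and Rpl37 (0.36), and the widest to Rpl23 (2.35), Rpl29 (2.33), Rps15a (2.09) and Rplp0 (2.08). Of these 4 with narrow ranges, Rps20, Rpl41 and Rpl37 had means of 15.73, 15.76 and 15.08, near that ceiling, whose part in the narrow ranges was not tested.

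**Figure D1:**
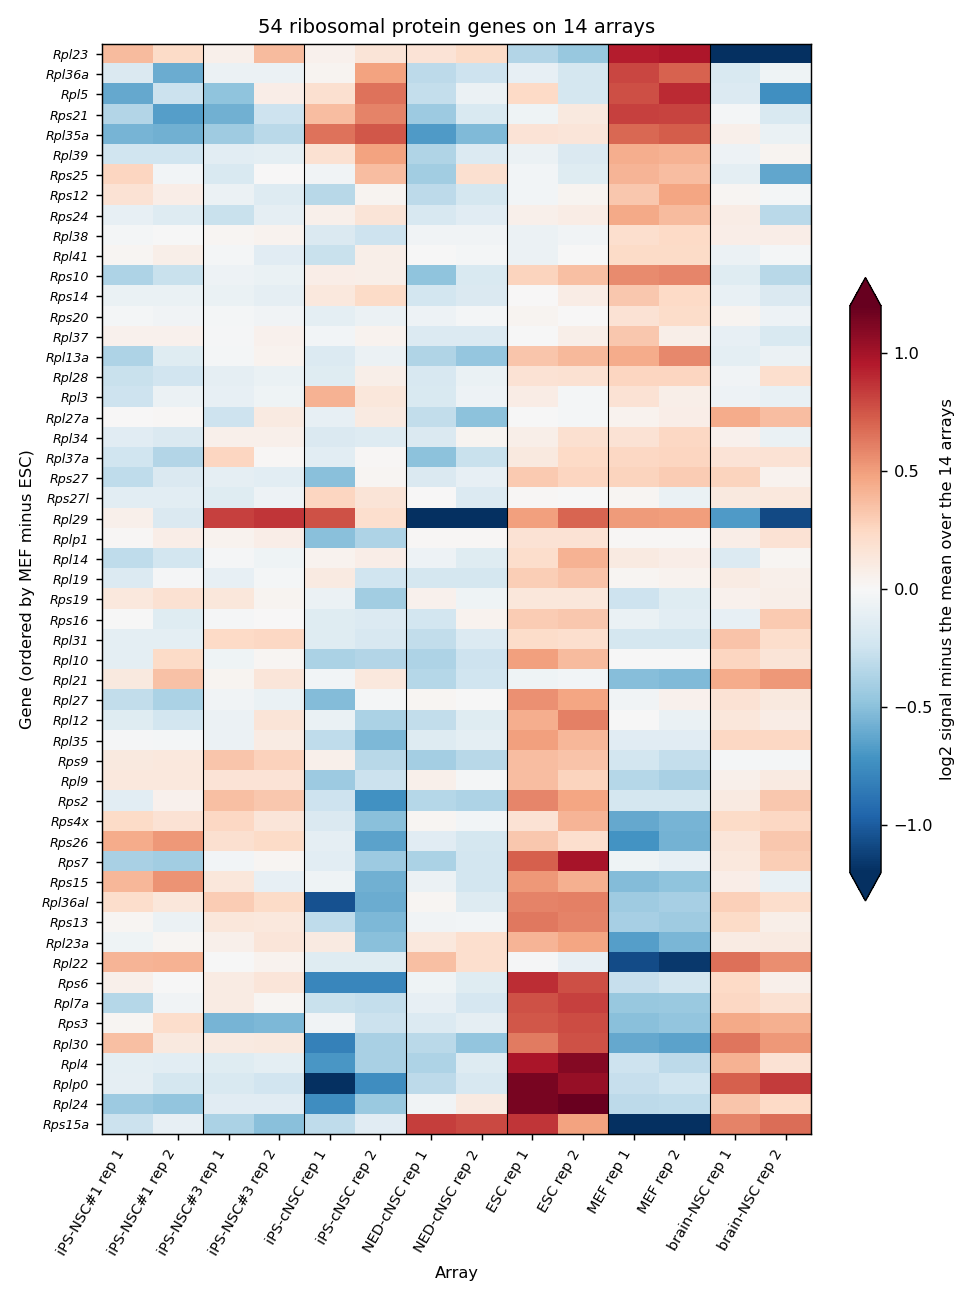
Each row is 1 of the 54 measured genes and each column 1 of the 14 arrays, and colour gives the log2 signal minus the gene's mean over the 14 arrays (colours saturate at 1.2). Rows run down by MEF minus ESC: the upper rows, such as Rpl5, Rps21 and Rpl35a, were highest in MEFs, and the lower rows, such as Rplp0, Rpl24 and Rps6, in ESCs.

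Tissue labels were set against marker lists. Of the 9 NSC markers measured, 8 were lower in ESCs and 8 in MEFs than in brain-NSCs, the 3 measured pluripotency genes (Pou5f1, Dppa5a and Esrrb) were higher in ESCs, and the 5 measured fibroblast genes were higher in MEFs. ESCs were grown on feeders: 3 of the 5 fibroblast genes (Thy1, Dcn and Pdgfra) were higher in ESCs than in brain-NSCs, Twist1 fell by 1.12, and the 5 summed to a signal of 1580 to 1600 in ESCs, 44500 to 45000 in MEFs and 1330 to 1360 in brain-NSCs. Thy1 was also high in iPS-NSCs #1 (12.63), against 8.05 in iPS-NSCs #3. The summed signal of the 9 NSC markers was 60600 to 69600 for the iPS-NSC lines, against 77700 to 82500 in brain-NSCs. It was 88500 to 97400 for NED-cNSCs, 114000 to 120000 for iPS-cNSCs, 4920 to 4950 in ESCs and 14700 to 16800 in MEFs. Against brain-NSCs, 4 of the 9 were lower and 0 higher for iPS-NSCs at an adjusted p under 0.05 (limma). The counts were 4 and 2 for NED-cNSCs, and 3 and 5 for iPS-cNSCs. Hes5 changed by -1.03 for NED-cNSCs, -1.92 for iPS-cNSCs and -3.29 for iPS-NSCs. Fabp7 changed by -1.05 for NED-cNSCs and -1.7 for iPS-NSCs, but by 1.02 for iPS-cNSCs. Of 8 neuron markers 3 were measured, summing to 4760 to 7600 in iPS-NSCs, 9830 to 11000 in iPS-cNSCs, 7620 to 7770 in NED-cNSCs, 988 to 997 in ESCs, 1140 to 1210 in MEFs and 5840 to 6590 in brain-NSCs. Among them Mapt, a microtubule protein of axons, rose by 1.54 in iPS-cNSCs and by 2.81 in NED-cNSCs. The 3 neuron markers did not move together. In each of these 2 groups, 2 were higher and 1 lower than in brain-NSCs at an adjusted p under 0.05 (limma). Between iPS-cNSCs and NED-cNSCs the difference was -1.27 for Mapt and 1.10 for Map2. Of 7 astrocyte markers 4 were measured, with sums of 15200 to 19000 in iPS-NSCs, 22500 to 24300 in iPS-cNSCs, 12800 to 13400 in NED-cNSCs, 21500 to 22700 in ESCs, 14000 to 14300 in MEFs and 13200 to 14100 in brain-NSCs. Of these Gja1, a gap junction protein, rose by 3.04 in iPS-NSCs, 3.79 in iPS-cNSCs, 4.24 in ESCs and 3.61 in MEFs, and fell by 1.80 in NED-cNSCs. The 4 astrocyte markers did not move together against brain-NSCs. At an adjusted p under 0.05 (limma), 1 was higher and 3 lower in iPS-NSCs, and 2 and 2 in iPS-cNSCs. For ESCs and for MEFs, 1 was higher and 2 lower. Slc1a2 changed by -0.72 in iPS-NSCs and by -0.91 in iPS-cNSCs, and Aldoc by -3.79 in ESCs and by -5.75 in MEFs. The part of other cell types in the results was not tested. The 2 iPS-cNSC arrays differed from each other in members by a median of 0.23 on the log2 scale, against 0.04 to 0.11 in the other 6 groups. On the 10 arrays whose raw signals could be matched by name, the lowest signal was 79.8 to 96.17 on the iPS-cNSC and MEF arrays and 119.2 to 132.2 on the NED-cNSC, ESC and brain-NSC arrays, and the mean signal was 1234 to 1326 on the iPS-cNSC and MEF arrays and 781.2 to 919.1 on the others. Signal level and group cannot be told apart for these 4 arrays, which were quantile normalized with the rest. In bulk RNA, fewer cells of a kind and less RNA per cell cannot be told apart.

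ESCs had the highest mean for more members than any other group. Of the 54 genes, 21 (38.9%) were higher and 3 (5.56%) lower in ESCs than in brain-NSCs at an adjusted p under 0.05 (limma), against 35.8% higher and 32.6% lower among all 8435 genes. The share called higher was near that of all genes, while the share called lower was well below it. The median change was 0.19 for members and 0.04 for all genes, and 46 of the 54 were above 0. With signals only scaled to a common median the member median was 0.18 and that of all genes -0.13 (23% of all genes higher and 40.2% lower). The group mean was highest in ESCs for 25 members (46.3%, all genes 29.6%) and the lowest for 0 (all genes 23.4%). Both ESC arrays lay above the other 12 for 19 members, which held for 23.4% of all genes, and below the other 12 for 0, which held for 18.1%. In both subunits the share called higher was near that of all genes, with 12 of 31 large-subunit and 8 of 21 small-subunit genes (38.7% and 38.1%). Called lower were 3 of the 31 and 0 of the 21 (9.68% and 0%), against 32.6% of all genes.

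Over 2-fold, 1 member passed in ESCs, Rpl29 (all genes 20.6%). Rpl24, a large-subunit protein whose loss causes the Belly spot and tail mouse, gave 11.24 and 11.29 in ESCs, against 10.43 and 10.34 in brain-NSCs. This was a difference of 0.88 ± 0.10 (SE, adjusted p = 7e-07, limma). Rpl4, which lines the exit tunnel for the growing peptide, gave 13.21 and 13.33 in ESCs, against 12.64 and 12.40 in brain-NSCs (difference 0.75 ± 0.11, adjusted p = 2.1e-05, limma). Rps6, the substrate of the S6 kinases, gave 14.47 and 14.36 in ESCs, against 13.82 and 13.64 in brain-NSCs (0.69 ± 0.09, adjusted p = 3.1e-06, limma). For each of these 3 genes both ESC arrays were the highest of the 14. The members that were lower in ESCs were Rpl22 (-0.67), Rpl21 (-0.53) and Rpl27a (-0.43), all of the large subunit, and brain-NSCs had the highest mean of all groups for each of them.

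**Figure D2:**
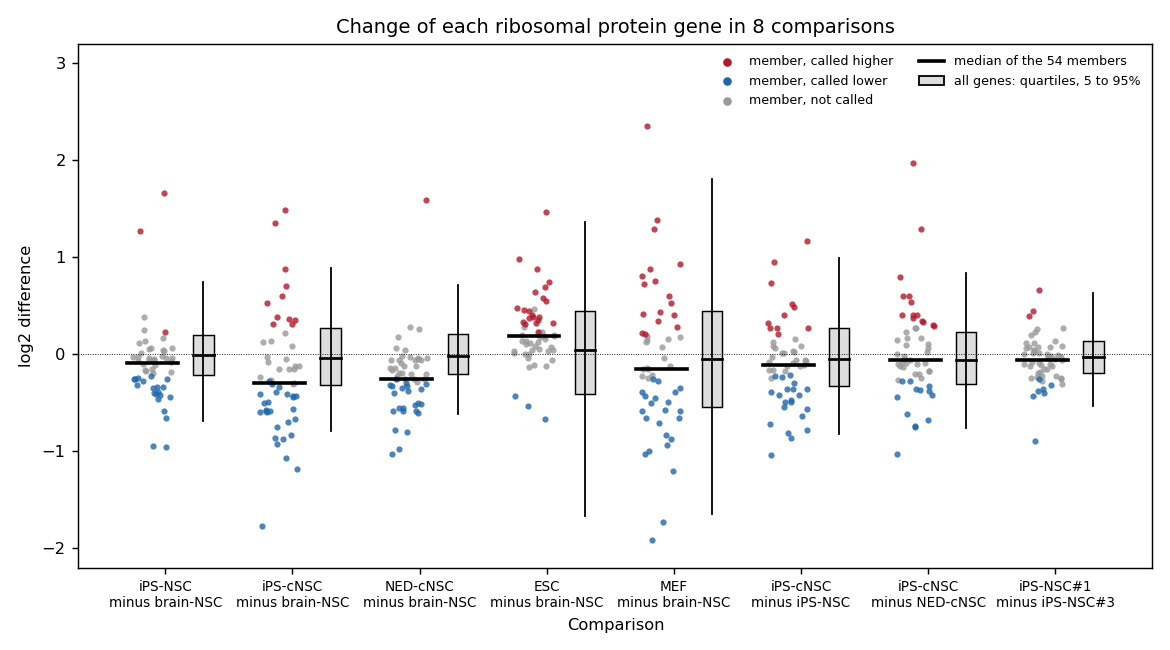
Each point is 1 of the 54 members and the vertical axis is its log2 difference in 1 of 8 comparisons, with the called genes in colour and the member median as a bar; the box and line beside it give the quartiles and the 5 to 95% range of all 8435 genes. In ESCs minus brain-NSCs the member median was 0.19 and 3 points were called lower, while in NED-cNSCs minus brain-NSCs the median was -0.25 and 1 point was called higher.

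MEFs split the members. Against brain-NSCs, 17 were higher and 23 lower (31.5% and 42.6%, all genes 34.2% and 39.3%), shares close to those of all genes. A smaller share than that of all genes passed 2-fold, with 8 members (14.8%, all genes 24.1%). The member median of -0.15 (all genes -0.05) turned to 0.40 (all genes 0.26, with 49.9% higher and 25.7% lower) when signals were only scaled to a common median, with 33 members higher and 8 lower. Over 2-fold, Rpl23 (2.35), Rpl29 (1.38) and Rpl5 rose and 5 fell, which were Rps15a, Rpl22, Rpl30, Rplp0 and Rpl21. Rpl30 averaged 10.96 in MEFs and 12.16 in brain-NSCs, while Rplp0 fell by 1.03 and Rpl21 fell by 1.00 in MEFs. Rps15a, a core protein of the small subunit, gave 7.82 and 7.73 in MEFs, where 1 of the 2 arrays was above background, against 9.65 and 9.73 in brain-NSCs (difference -1.92 ± 0.11, adjusted p = 3e-10, limma). Rpl22, an RNA-binding protein of the large subunit, gave 11.20 and 11.11 in MEFs and 12.93 and 12.83 in brain-NSCs (-1.73 ± 0.08, adjusted p = 2.9e-11, limma). In both genes the MEF arrays were below all 12 others. Rpl5, which forms a particle with 5S rRNA and binds Mdm2, gave 14.35 and 14.47 in MEFs, against 13.41 and 12.84 in brain-NSCs (1.29 ± 0.22, adjusted p = 6.2e-05, limma). Both MEF arrays were the highest of the 14, and the arrays of most other groups lay far apart in this gene. Without brain-NSC replicate 1 or 2 the difference was 1.57 or 1.00. Rps21 (0.93) and the X-linked Rpl36a (0.88) were also higher. Both MEF arrays stood above the other 12 for 13 members (all genes 19.3%) and below them for 6 (all genes 19.8%).

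In iPS-cNSCs, 27 members were lower than in brain-NSCs. Of the 54, 11 were higher and 27 lower (20.4% and 50%), against 25.9% and 31.4% of all genes, with a median of -0.30 (all genes -0.04). Over 2-fold, 5 passed (all genes 6.32%), Rpl23 and Rpl29 upward and Rplp0, Rpl30 and Rpl36al downward. Both iPS-cNSC arrays were below the other 12 for 8 members (14.8%, all genes 9.76%) and above them for 1 (all genes 7.42%). The median lay between -0.32 and -0.25 when any 1 array was left out. When signals were only scaled to a common median it turned to 0.24, but the median of all genes then moved to 0.56 (71.3% higher and 7.86% lower), so that members minus all genes was -0.31, where it was -0.26 in the quantile-normalized values.

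Rplp0, the scaffold of the stalk on which the Rplp1 and Rplp2 dimers sit, gave 9.88 and 10.38 in iPS-cNSCs, against 11.84 and 11.96 in brain-NSCs (-1.77 ± 0.12, adjusted p = 1.7e-08, limma). It was 11.01 and 10.91 in iPS-NSCs #1, 10.94 and 10.89 in iPS-NSCs #3, 10.81 and 10.93 in NED-cNSCs, 10.85 and 10.88 in MEFs, and 12.26 and 12.17 in ESCs. These values fall into an upper level (ESCs and brain-NSCs), a middle level of 10.81 to 11.01 in 4 groups, and the iPS-cNSCs below. Rplp1, one of its partners, was lower in iPS-cNSCs too, at 15.32 and 15.45, against 15.90 and 15.99 in brain-NSCs, and the other groups were between 15.83 and 15.99 (-0.56 ± 0.08, adjusted p = 2.9e-05, limma). Brain-NSC replicate 2 stood at the ceiling of 15.99, so the size of this difference is uncertain. Rplp2 had no probe past the filter.

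Rps6 gave 12.80 and 12.80 in iPS-cNSCs, against 13.82 and 13.64 in brain-NSCs (-0.93 ± 0.09, adjusted p = 3.3e-07, limma), the lowest pair among the 14 arrays. Rpl36al, the autosomal paralogue of Rpl36a, gave 12.58 and 13.03 in iPS-cNSCs, against 13.91 and 13.83 in brain-NSCs (-1.07 ± 0.12, adjusted p = 2e-06, limma). Rpl36a itself ran the other way, at 12.79 and 13.24 in iPS-cNSCs, against 12.57 and 12.70 in brain-NSCs, without overlap (0.38 ± 0.14, adjusted p = 0.029, limma), but this rested on single arrays: it was 0.16 without iPS-cNSC replicate 2 and 0.31 without brain-NSC replicate 1, and then not called, and 0.60 without iPS-cNSC replicate 1. Rpl30, which in yeast binds its own transcript and blocks its splicing, gave 10.77 and 11.19 in iPS-cNSCs, against 12.22 and 12.10 in brain-NSCs (-1.18 ± 0.12, adjusted p = 1.2e-06, limma). Among the genes that were higher, Rpl35a, which is mutated in some patients with Diamond-Blackfan anaemia, gave 13.67 and 13.76 in iPS-cNSCs, against 13.08 and 12.94 in brain-NSCs (0.70 ± 0.09, adjusted p = 6.5e-06, limma). Its iPS-cNSC and MEF arrays were the 4 highest of the 14, and all 6 iPS-NSC and NED-cNSC arrays were below the brain-NSC arrays. Rpl24 fell by 0.87 in iPS-cNSCs. Rpl5 (0.88) and Rps21 (0.60) were higher as well. The value for Rpl5 was 1.16 without brain-NSC replicate 1 and 0.60 without brain-NSC replicate 2, where it was no longer called.

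In NED-cNSCs, from the host cells of chimeric embryos, 1 member was higher and 23 were lower (1.85% and 42.6%) than in brain-NSCs, against 20.2% and 18.6% of all genes. The median was -0.25 (all genes -0.01) and 48 of 54 were below 0. With signals only scaled to a common median 48 members were called lower and the median was -0.58 (all genes -0.11, with 11.1% higher and 27.3% lower). The lower group held 16 of 31 large-subunit genes and 6 of 21 small-subunit genes, a difference between subunits that was not tested. Over 2-fold, 2 passed (3.7%, all genes 4.29%), Rpl23 upward and Rplp0 downward. Rplp0 was 10.81 and 10.93 in NED-cNSCs, against 11.84 and 11.96 in brain-NSCs (-1.03 ± 0.12, adjusted p = 8.7e-06, limma). Rpl27a gave 11.45 and 11.25 in NED-cNSCs, against 12.19 and 12.12 in brain-NSCs (-0.80 ± 0.11, adjusted p = 3.8e-05, limma), and Rpl21 gave 8.32 and 8.42 in NED-cNSCs, against 9.11 and 9.18 in brain-NSCs (-0.78 ± 0.09, adjusted p = 1.1e-05, limma). Rpl30 fell by 0.98 (adjusted p = 1.3e-05, limma). A second probe of Rpl21 fell in step, with 8.40 and 8.42 in NED-cNSCs, against 9.15 and 9.01 in brain-NSCs.

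The pooled iPS-NSC lines had 3 members higher and 20 lower than brain-NSCs (5.56% and 37%, all genes 22.7% and 24.1%), with a median of -0.09 (all genes -0.01). Over 2-fold, 2 passed (3.7%, all genes 4.9%), Rpl23 and Rpl29, both upward. Rplp0 fell by 0.96 (adjusted p = 2.5e-06, limma) and Rps15a fell by 0.95 (adjusted p = 1.1e-06, limma), with values close together in both lines. Rpl24 (-0.58) and Rpl35a (-0.46) were also lower. Rps9 was the other member called higher, at 0.23, and this call was lost without any 1 of 12 of the 14 arrays. Rps3, which sits at the entry of the mRNA channel, gave 14.45 and 14.64 in line #1 and 13.87 and 13.89 in line #3, against 14.88 and 14.85 in brain-NSCs, so that its change of -0.66 was larger in line #3. Its second probe gave 13.25 and 13.21 in line #1 and 13.20 and 13.39 in line #3, with no such gap. Without brain-NSC replicate 1 or 2, fewer members and fewer of all genes were called lower, and the 2 shares were closer together. The member median was then -0.14 or -0.13, against -0.01 for all genes.

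Line #1 had 3 members higher and 7 lower than line #3 (5.56% and 13%, all genes 14.5% and 15.8%), and 0 passed 2-fold (all genes 3.07%), the difference farthest from 0 being -0.89. Without any 1 of the 4 iPS-NSC arrays, fewer members and fewer of all genes were called lower. The member median, -0.06 with all arrays, was then between -0.09 and -0.03. More members and more of all genes were called higher without either iPS-cNSC array. Rps3 was higher in line #1 by 0.66 (adjusted p = 3.9e-05, limma). Rpl29 was lower in line #1 (-0.89, adjusted p = 0.00068, limma), at 13.02 and 12.79 in line #1, against 13.78 and 13.82 in line #3. Rps15 (0.45) and Rpl22 (0.39) were also higher in line #1, and Rpl37a (-0.43), Rps7 (-0.40), Rps2 (-0.38) and Rpl31 (-0.36) lower. Leaving out single iPS-NSC arrays ended the calls of Rps15 (0.38 without line #1 replicate 2 and 0.33 without line #3 replicate 2), Rpl37a (-0.37 without line #1 replicate 2 and -0.32 without line #3 replicate 1), Rps2 (-0.40 to -0.30, lost without 3 of the 4) and Rps7 (-0.43 to -0.38, lost without any of the 4). The dimmer probe of Rpl29 differed the same way as its brightest (-1.25), while the Rps3 gap between the lines was that of 1 of its 2 probes.

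**Figure D3:**
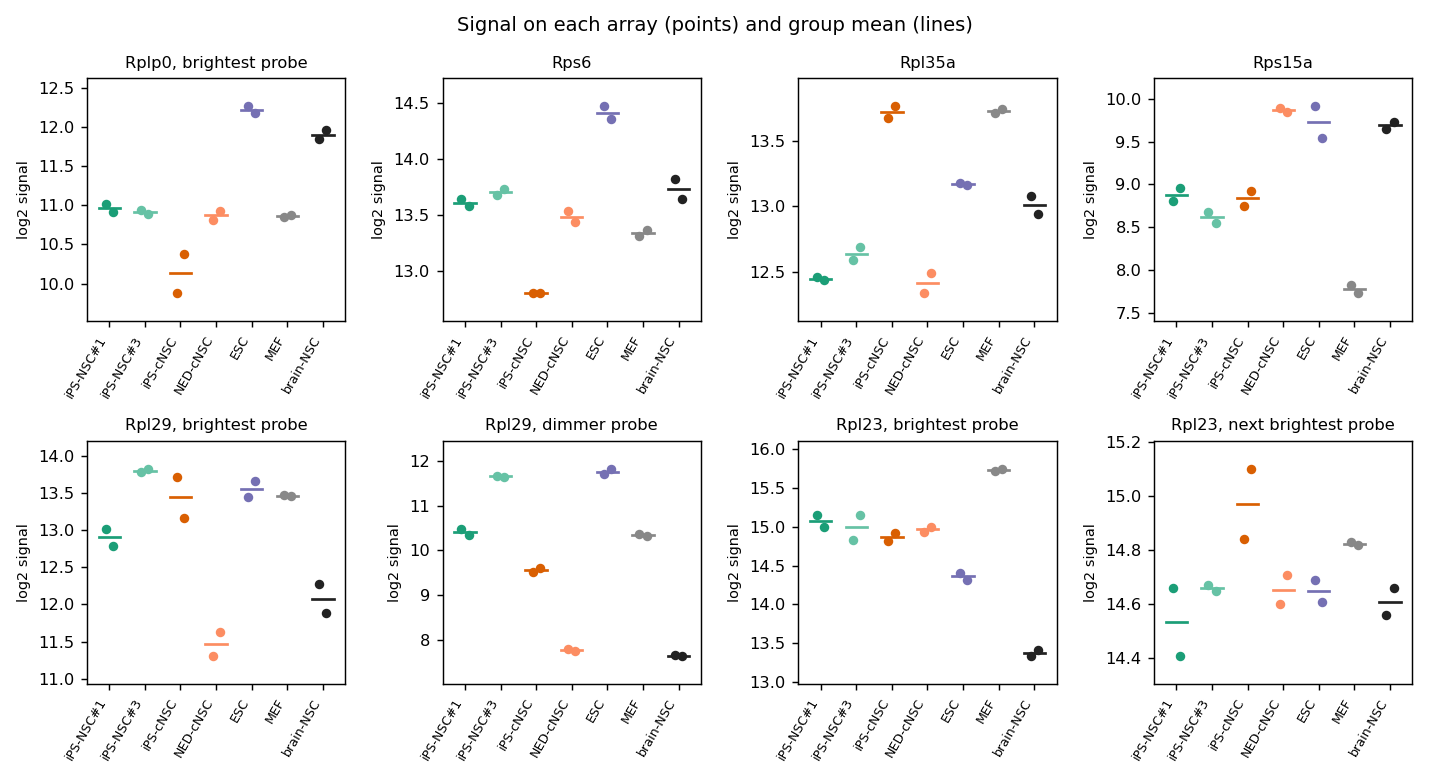
Log2 signal of 8 probes on each of the 14 arrays (points, 2 to a group) with the group mean (lines), the vertical axis fitted to each probe and not starting at 0. Rplp0 and Rps6 were lowest in iPS-cNSCs, Rpl35a was highest in iPS-cNSCs and MEFs, both Rpl29 probes were low in NED-cNSCs and brain-NSCs, and the brightest Rpl23 probe was low in brain-NSCs while the next probe was not.

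Rpl29 had the widest range after Rpl23. It encodes a small large-subunit protein that is also known as a heparin-binding protein. Its brightest probe gave 11.31 and 11.63 in NED-cNSCs and 12.28 and 11.88 in brain-NSCs, while the other 10 arrays were between 12.79 and 13.82. The second probe gave 7.80 and 7.75 in NED-cNSCs, just above the background level, and 7.65 and 7.64 in brain-NSCs, not above it. It gave 10.48 and 10.34 in iPS-NSCs #1, 11.67 and 11.64 in iPS-NSCs #3, 9.51 and 9.61 in iPS-cNSCs, 11.71 and 11.82 in ESCs, and 10.37 and 10.33 in MEFs. With that probe not above background in brain-NSCs, it was higher than in brain-NSCs by at least 10.4-fold for iPS-NSCs, 3.76-fold for iPS-cNSCs, 17.3-fold for ESCs and 6.49-fold for MEFs (bounds from group means of normalized log2 values, taking for the dim side the higher of its own signal and the lowest signal counted as above background; adjusted p between 1.6e-15 and 6.5e-11, limma). By the brightest probe the differences from brain-NSCs were 1.27 in iPS-NSCs, 1.35 in iPS-cNSCs, -0.61 in NED-cNSCs, 1.47 in ESCs and 1.38 in MEFs. The NED-cNSC difference was -0.46 without NED-cNSC replicate 1 and -0.41 without brain-NSC replicate 1, where it was no longer called. The second probe, not above background in brain-NSCs, could not show a fall. By both probes the NED-cNSC and brain-NSC arrays were the 4 lowest of the 14, and these are the NSC groups that were not made from iPSCs. ESCs and MEFs, not made from iPSCs either, were higher by both probes, and the part of cell origin was not tested.

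Rpl23, a large-subunit protein at the face between the subunits that also binds Mdm2, passed 2-fold in 4 comparisons by 1 probe only. That probe gave 13.34 and 13.41 in brain-NSCs, while the other 12 arrays were between 14.31 and 15.74, so the comparisons with brain-NSCs share the same low pair. Its next probe gave 14.56 and 14.66 in brain-NSCs and 14.41 to 15.10 elsewhere. The differences from brain-NSCs by that second probe were 0.37 in iPS-cNSCs, 0.05 in ESCs and 0.22 in MEFs, against 1.49, 0.98 and 2.35 by the first. The large change of Rpl23 was that of 1 of its 4 probes past the filter, so its size is uncertain.

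Of the 54 genes, 11 had 2 or more probes past the filter, and these did not always move together. Against brain-NSCs, probes of 1 gene were called in opposite directions for 2 genes in MEFs, Rpl23 and Rps24, and in 0 of the 11 genes in the other 4 comparisons. Between iPS-cNSCs and iPS-NSCs they occurred in 4 genes, Rpl23, Rplp0, Rps24 and Rps9, and between iPS-cNSCs and NED-cNSCs in 2, Rpl23 and Rplp0. Rps24, a small-subunit protein whose transcripts are alternatively spliced at the 3′ end, gave 14.76 and 14.85 in iPS-cNSCs, against 14.79 and 14.38 in brain-NSCs, by its brightest probe. Its other probe gave 9.62 and 9.89 in iPS-cNSCs, against 10.89 and 10.87 in brain-NSCs, and 11.72 and 11.73 in ESCs. Rpl38, whose loss alters the skeleton of the Tail-short mouse, had a bright probe whose group means spanned 0.43, and a dimmer one that spanned 2.39, from 8.71 and 9.27 in iPS-cNSCs to 11.35 and 11.41 in ESCs. For Rpl31 the spans were 0.50 and 1.53, and for Rps9 0.73 and 2.12. The second probe of Rplp0 was at most 8.23 on any array, close to background.

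In iPS-cNSCs against the in vitro lines, 11 members were higher and 21 lower (20.4% and 38.9%, all genes 28.3% and 35.8%), and 2 passed 2-fold (3.7%, all genes 8.06%), Rpl35a (1.17) upward and Rpl36al (-1.04) downward. Rps21 (0.95), Rpl5 (0.74), Rpl39 (0.52) and Rpl36a (0.49) were also higher in iPS-cNSCs, and Rps6 (-0.86), Rplp0 (-0.81), Rpl30 (-0.78) and Rps26 (-0.72) lower. Without iPS-cNSC replicate 2 Rpl5 was 0.51 and Rpl36a 0.27, neither of them called, and Rps26 was -0.46. Rpl35a was 12.46 and 12.44 in line #1 and 12.59 and 12.69 in line #3, below both iPS-cNSC arrays. In iPS-cNSCs against NED-cNSCs, 14 members were higher and 13 lower (25.9% and 24.1%, all genes 23.2% and 30.7%), and 3 passed 2-fold (5.56%, all genes 5.49%), Rpl29 (1.97) and Rpl35a (1.29) upward and Rps15a (-1.03) downward. Rps15a was 8.75 and 8.92 in iPS-cNSCs, against 9.89 and 9.85 in NED-cNSCs, and in this gene the iPS-cNSCs lay with the in vitro lines, at 8.55 to 8.96. Rpl39 (0.60), an X-linked protein of the exit tunnel, Rps21 (0.80) and Rpl5 (0.60) were higher in iPS-cNSCs than in NED-cNSCs, though Rpl5 was 0.37 without iPS-cNSC replicate 2 and 0.49 without NED-cNSC replicate 1, where it was not called. Rps6 (-0.68), Rpl36al (-0.75), Rplp0 (-0.74) and Rpl24 (-0.62) were lower, and without iPS-cNSC replicate 1 Rplp0 was at -0.49. When signals were only scaled to a common median these 4 turned to 0.30, 0.22, 0.31 and 0.36, and 51 members were higher and 0 lower (all genes 77.9% and 6.3%), with a median of 0.84 for members and 0.71 for all genes.

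Members that were higher in MEFs than in ESCs tended to be higher in iPS-cNSCs than in NED-cNSCs. The difference iPS-cNSC minus NED-cNSC and the difference MEF minus ESC share no array. Over the 54 members they had the same sign in 41 (75.9%), with Pearson's r of 0.64 and Spearman's rho of 0.73. Over all 8435 genes the share was 58.8% and the coefficients were 0.11 and 0.17. These are descriptions across genes, which are not independent replicates, and the 4 arrays on one side (iPS-cNSC and MEF) are those with the lower lowest signal and the higher mean signal given above. With 3 other normalizations of the same arrays the members' rho was 0.68 to 0.79 and that of all genes 0.16 to 0.23. This check was chosen after seeing the data. Rpl35a, Rps21, Rpl5 and Rpl39 were above 0 in both, and Rplp0, Rpl24, Rps6, Rpl36al and Rps15a below 0 in both. Of 5 such pairs of differences that were computed, the 4 that held iPS-cNSC and MEF arrays had a members' rho of 0.68 to 0.73. In the one without those arrays, NED-cNSC minus iPS-NSC and ESC minus brain-NSC, it was -0.05, with r of -0.29 and the same sign in 17 members (31.5%), against -0.12, -0.16 and 44.8% over all genes. Rpl29 was 1.97 in the first difference and -0.09 in the second, and Rpl23 was -0.10 and 1.36. The part of signal level in this result was not tested.

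**Figure D4:**
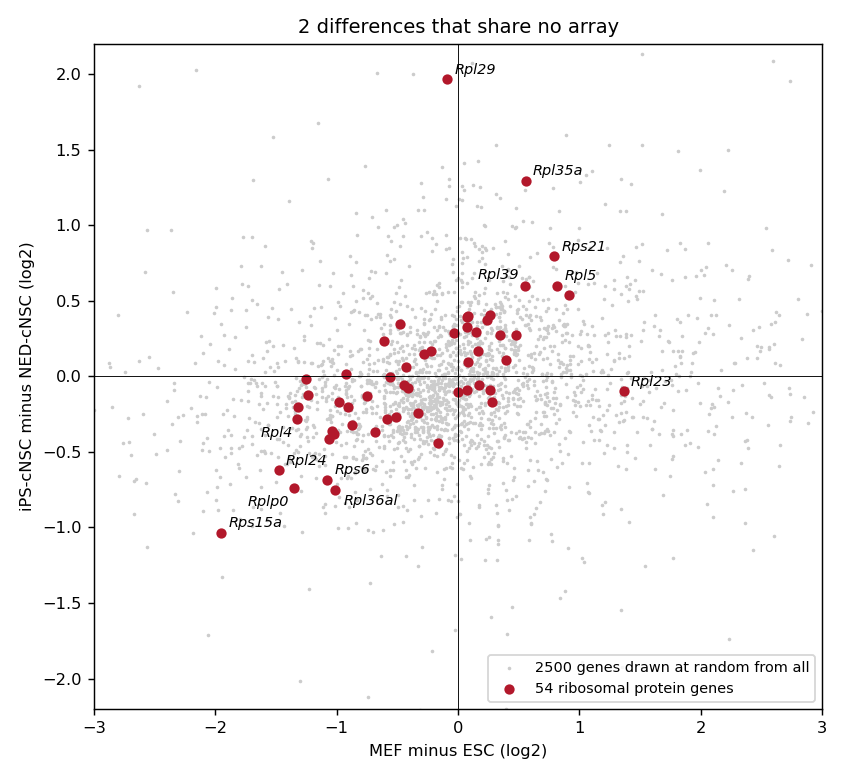
Each red point is 1 of the 54 members, with MEF minus ESC on the horizontal and iPS-cNSC minus NED-cNSC on the vertical axis, both in log2 (axes end at 3 and 2.2 either side of 0); grey points are 2500 of the 8435 genes drawn at random. The red points run from Rps15a at the lower left to Rps21 and Rpl35a at the upper right, with r = 0.64, where all genes had r = 0.11.

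Among the paralogues, Rpl3l, the muscle paralogue of Rpl3, and Rpl39l, a germ-line paralogue of Rpl39, were not past the filter, while Rpl3 was between 14.51 and 15.18 and Rpl39 between 13.87 and 14.71 on all arrays. Rps27l, a p53-responsive paralogue of Rps27, was between 14.66 and 15.08, and Rps27 between 13.09 and 13.91. Related genes whose symbols fall outside the rule were Fau, Rpl22l1, Rpl7l1 and Rps3a1. Fau, which encodes S30 fused to a ubiquitin-like protein, was 13.52 and 12.87 in iPS-cNSCs and 13.28 and 13.38 in NED-cNSCs, against 14.22 and 14.38 in brain-NSCs, differences of -1.10 (adjusted p = 1.7e-05, limma) and -0.96 (adjusted p = 1e-04, limma). Rpl22l1, the paralogue of Rpl22, was 7.94 and 7.92 in NED-cNSCs, against 8.81 and 8.91 in brain-NSCs (-0.93). In ESCs it gave 9.01 and 8.84, a difference of 0.06 from brain-NSCs, while Rpl22 fell by 0.67 there. Rpl7l1 was higher in ESCs (0.33) and lower in the other 4 comparisons with brain-NSCs (-0.25 in iPS-NSCs, -0.71 in iPS-cNSCs, -0.43 in NED-cNSCs and -1.16 in MEFs). The iPS-NSC change of Rpl7l1 was not called without either brain-NSC array. Rps3a1 fell by 1.00 in iPS-NSCs (adjusted p = 3.7e-05, limma), with -1.49 in line #1 and -0.50 in line #3. In ESCs it gave 11.42 and 11.14, against 10.57 and 11.14 in brain-NSCs (0.43, adjusted p = 0.033, limma), and the difference was 0.14 without brain-NSC replicate 1 and 0.28 without ESC replicate 1, where it was not called, and 0.71 without brain-NSC replicate 2. The 4 X-linked members (Rpl10, Rpl36a, Rpl39 and Rps4x) split evenly in iPS-cNSCs against brain-NSCs, with 2 higher and 2 lower, the higher ones being Rpl36a and Rpl39, whose calls were lost without iPS-cNSC replicate 2 (0.16 and 0.20) or brain-NSC replicate 1 (0.31 and 0.30).

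Other genes of ribosome production and translation were counted from fixed lists. Of 70 measured nucleolar genes of ribosome biogenesis (88 listed), 59 were higher and 1 lower in ESCs than in brain-NSCs (84.3% and 1.43%, all genes 35.8% and 32.6%), with a median of 0.75 where the ribosomal proteins had 0.19. Rrp1b, a nucleolar factor, rose by 1.94 (adjusted p = 1.2e-10, limma) and Nip7, needed for large-subunit assembly, by 1.47. Of the 13 measured genes of RNA polymerase I and its factors (20 listed), which transcribe the rRNA, 10 were higher and 1 lower in ESCs (76.9% and 7.69%), among them Polr1a, the largest subunit (1.27), and Polr2e, a subunit shared by the 3 polymerases (1.51).

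In the other groups more biogenesis genes were lower than higher against brain-NSCs: 34 lower and 6 higher in iPS-NSCs (48.6% and 8.57%, all genes 24.1% and 22.7%), 45 and 6 in iPS-cNSCs (64.3% and 8.57%, all genes 31.4% and 25.9%), 41 and 4 in NED-cNSCs (58.6% and 5.71%, all genes 18.6% and 20.2%), and 41 and 14 in MEFs (58.6% and 20%, all genes 39.3% and 34.2%). Their medians were -0.25 in iPS-NSCs, -0.36 in iPS-cNSCs, -0.31 in NED-cNSCs and -0.50 in MEFs. In MEFs Fbl, the rRNA methyltransferase, fell by 1.76 and Nhp2, a protein of box H/ACA RNPs, by 1.53. In iPS-cNSCs Rrp12 fell by 1.46 and Ddx18, a nucleolar helicase, by 1.24. Rrp1b went the other way, with 1.08 in NED-cNSCs and 1.12 in iPS-NSCs.

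**Figure D5:**
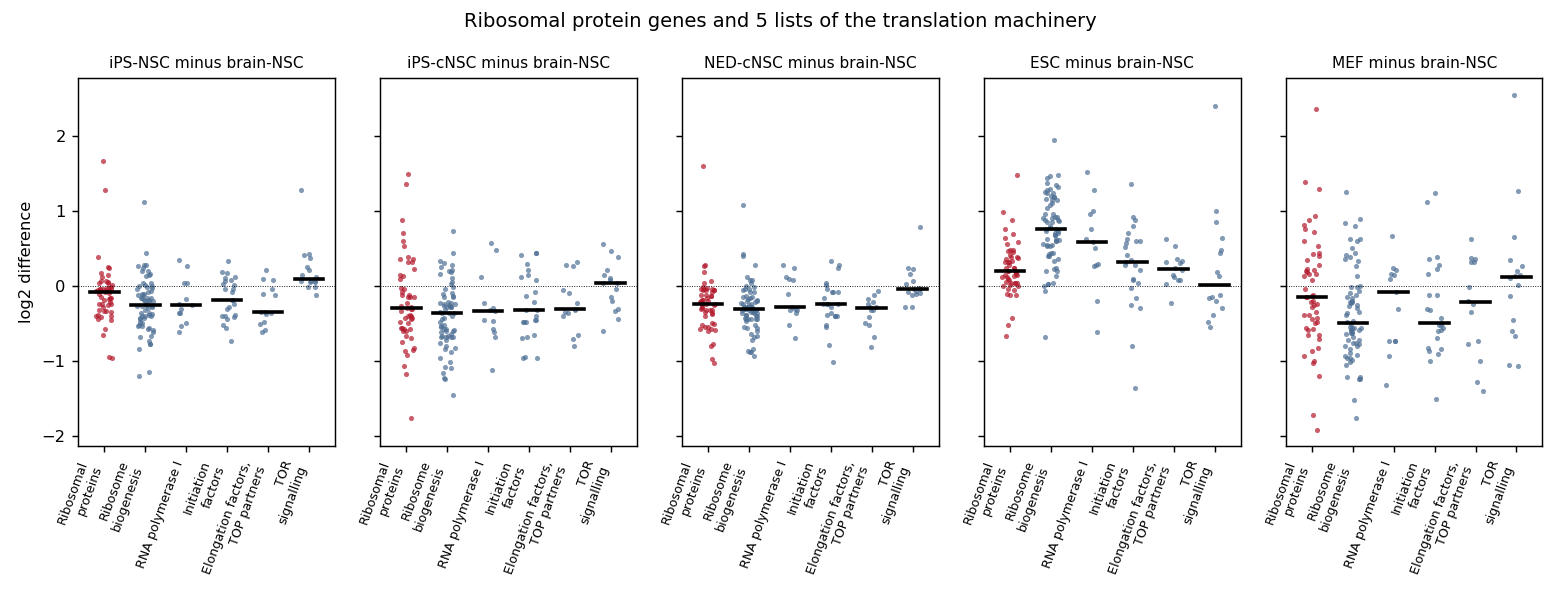
Log2 differences from brain-NSCs of the 54 ribosomal proteins (red) and the measured genes of 5 other lists (blue), 1 point per gene with the median as a bar, in 5 comparisons. In ESCs the medians were 0.19 for ribosomal proteins and 0.75 for ribosome biogenesis, and in NED-cNSCs they were -0.25 and -0.31.

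Among 25 measured initiation factors, 12 were higher and 4 lower in ESCs (48% and 16%, all genes 35.8% and 32.6%, median 0.31). In MEFs 4 were higher and 16 lower (16% and 64%, all genes 34.2% and 39.3%, median -0.50), and in iPS-cNSCs 4 were higher and 14 lower (16% and 56%, all genes 25.9% and 31.4%, median -0.33). Eif2s3x, the X-linked subunit of the factor that brings the initiator tRNA, fell by 1.51 in MEFs and by 0.96 in iPS-cNSCs against brain-NSCs. Of 14 measured elongation factors and other genes with TOP mRNAs (17 listed), 0 were higher and 5 lower in NED-cNSCs (0% and 35.7%, all genes 20.2% and 18.6%, median -0.30). All 14 were below 0 there, as were 4362 of all 8435 genes, and Eef1b2 fell by 0.82 (adjusted p = 3.5e-05, limma). In ESCs 4 of the 14 were higher and 0 lower at an adjusted p under 0.05 (limma, 28.6% and 0%, all genes 35.8% and 32.6%, median 0.22). Eif4ebp1, the repressor of cap-dependent initiation that TOR silences, rose by 2.40 in ESCs and by 2.54 in MEFs, while its relative Eif4ebp2 rose by 1.27 in iPS-NSCs and by 0.78 in NED-cNSCs. Over the 16 measured genes of TOR signalling the medians were between -0.05 (NED-cNSCs) and 0.12 (MEFs) in the 5 comparisons with brain-NSCs. The list counts come from genes chosen with earlier results of these data known, and are read beside the shares of all genes given above.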

How the data were processed

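RNA of 14 samples was hybridised to Illumina MouseRef-8 v2 arrays. The authors extracted signals with GenomeStudio 2011.1 (per the submitters' notes), and the deposited table holds log2 values quantile normalized over 25697 probes. The deposited signal intensities before normalization, with detection p-values written by the authors' software, could be matched by name for 10 arrays and served only for alternatives, while 8 columns of samples were not used. The methods named a detection filter, quantile normalization and the local-pooled-error test. Here probes at 7.7 or more on 7 arrays were kept and quantile normalized again (largest change 0.16). All 7 groups entered 1 limma model (limma 3.58.1, R 4.3.3; 7 residual and 8.2 prior degrees of freedom) with Benjamini-Hochberg adjustment over all probes kept, the brightest probe standing for each gene. Calls used an adjusted p under 0.05, and 8 comparisons were made.

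Per comparison, the text names called members over 2-fold, the 5 largest rises and falls, stalk genes, Rps6, paralogues and, for each list, the 2 called genes that changed most; members named for narrow ranges or for differing probes were chosen after their values were seen. Members and lists were chosen with earlier results of these data known. Sequences were RefSeq's. With 2 arrays a group, precision is limited by that number. The method was tested on simulated data.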

Additional observations from a re-analysis of the deposited data

Results flagged for a closer look

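In 4 cases a member stood out because its change against brain-NSCs ran in opposite directions in 2 NSC groups. The difference itself was tested (limma, adjusted over all probes kept). Rpl35a was 0.70 in iPS-cNSCs and -0.59 in NED-cNSCs, a difference of 1.29 (adjusted p = 1.1e-08, limma). Rpl29 was 1.35 in iPS-cNSCs and -0.61 in NED-cNSCs, a difference of 1.97 (adjusted p = 1.6e-07, limma). Its NED-cNSC change was -0.46 without NED-cNSC replicate 1 and -0.41 without brain-NSC replicate 1, where it was not called. The opposite direction is therefore uncertain. Its second probe was not above background in brain-NSCs and so could not show a fall. Rps21 was 0.60 in iPS-cNSCs and -0.35 in iPS-NSCs, a difference of 0.95 (adjusted p = 4.1e-06, limma). Rpl35a was also -0.46 in iPS-NSCs, a difference of 1.17 from iPS-cNSCs (adjusted p = 2.9e-09, limma). These are the values of the direct comparisons in the report. The iPS-cNSC arrays had lower lowest signals and higher mean signals than the NED-cNSC arrays, and the part of this was not tested. For iPS-NSCs no signals were matched.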

How the results depend on the processing

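Under the local-pooled-error test, members called higher against brain-NSCs numbered 6 in iPS-cNSCs (all genes 16.8%), 5 in iPS-NSCs (19.3%) and 2 in NED-cNSCs (17.1%). They numbered 6 in iPS-cNSCs against iPS-NSCs (19.1%) and 5 in line #1 against line #3 (11.6%). In iPS-cNSCs against NED-cNSCs, 7 were higher and 6 lower (14.1% and 16.6%). The shares in brackets are those of all genes under the same test. With signals only scaled to a common median, 25 were higher and 5 lower in iPS-cNSCs, 33 and 8 in MEFs, and 48 lower in NED-cNSCs against brain-NSCs, and 51 higher and 0 lower in iPS-cNSCs against NED-cNSCs. The medians then reversed to 0.24 (iPS-cNSCs), 0.40 (MEFs) and 0.84 (iPS-cNSCs against NED-cNSCs), and in that last comparison Rpl24, Rpl36al, Rplp0 and Rps6 reversed to 0.36, 0.22, 0.31 and 0.30; the cause was not tested. With neqc, 7 were higher in iPS-cNSCs (all genes 23.1%) and 15 lower in NED-cNSCs (all genes 15.4%) against brain-NSCs. With every probe of a member counted, 11 of 67 were lower in line #1 against line #3 (all genes 15.8%). Leaving out 1 array gave 2 to 5 members higher and 11 to 20 lower in iPS-NSCs and 1 to 2 higher in NED-cNSCs against brain-NSCs, and 2 to 5 higher and 2 to 10 lower in line #1 against line #3. NED-cNSC replicate 1 gave the 2, and either iPS-cNSC array the 5. With the replicate block the 16 counts stayed within 1.5 times and the 70 named changes kept direction and call. Correlations of same-numbered arrays' deviations were -0.24 to 0.12 (median 0.02, 3 of 21 over 0.1). No general pairing by number was seen, but 2 arrays a group cannot show whether some groups were paired. Without the iPS-cNSC and MEF arrays, an alternative chosen after seeing the data, the 8 remaining counts and 30 named changes did the same. Leaving out arrays for paralogues and for related genes outside the naming rule was also chosen after seeing the data. With 2 arrays a group, small differences, members near the array's ceiling and probes near background are limited in precision.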
